A study of Rattus norvegicus with 20 samples.

Results

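Transcripts of 7 rat genes that mark mast cells were followed in whole ovaries of young females whose mothers had been fed brominated flame retardants. The genes were chosen by name: the granule proteases Mcpt9, Cma1, Cpa3, Tpsab1 and Tpsb2, and Fcer1a and Ms4a2, which encode 2 subunits of the high-affinity receptor for immunoglobulin E. They are 7 of 15715 gene symbols that the array's transcript accessions could be matched to, and they carry 8 probes, 2 of them for Fcer1a. Mcpt9 was included because its difference between the highest dose and the controls was already known, so its differences from the controls are described here without a test.

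Mast cells are tissue-resident immune cells that store proteases, histamine and heparin-like proteoglycans in granules and release them when antigen crosslinks immunoglobulin E on their surface. Chymase (Cma1) and the tryptases (Tpsab1 and Tpsb2) are serine proteases, and carboxypeptidase A3 (Cpa3) removes residues from the ends of peptide chains. In the ovary, mast cells lie mainly in the hilum, the medulla and the connective tissue around vessels.

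Sprague-Dawley dams ate diets with a mixture of brominated flame retardants (mostly DE-71, at 52.1%, and BDE-209, at 44.2%, with 3.3% hexabromocyclododecane and DE-79 making up 0.4%) from before mating to weaning on postnatal day 21. The groups were 0 mg/kg/day (control diet, 5 rats), 0.06 mg/kg/day (diet of 0.75 mg/kg, 4 rats), 20 mg/kg/day (250 mg/kg, 5 rats) and 60 mg/kg/day (750 mg/kg, 6 rats). The daughters' ovaries were taken at 46 days of age, from independent litters per the labels, and each was hybridised to 1 array with 1 dye. The exposure ran through the mother, so the labels give the dose of the dams and not that of the daughters.

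Values are log2 of the background-corrected spot signal minus log2 of the 75th percentile of that array, so a value of 0 is the array's own 75th percentile and a negative value is dimmer. That percentile ran from 1158 to 1737 signal units, and well-above-background spots made up 74.8% to 83.4% of an array. By group the percentile ran from 1419 to 1737 in controls, 1196 to 1552 at 0.06, 1241 to 1541 at 20 and 1158 to 1725 at 60. Spots above background made up 77.9% to 83.4%, 74.8% to 79.9%, 77.2% to 80.0% and 75.1% to 79.1% in the same order. Feature Extraction gave a spike-in slope of 0 on 9 of the 20 arrays, 2, 1, 3 and 3 at the rising doses. Rats of all 4 groups were present on each of 3 slides. Levels of different probes cannot be compared with each other, and in whole-organ RNA fewer mast cells and less RNA per mast cell cannot be told apart. Any RNA of these genes from other cells, such as basophils, cannot be told apart from that of mast cells either.

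Mcpt9 and Cma1 lie in the chymase locus of chromosome 15, where the reference places Mcpt9 between Mcpt1l3 and Mcpt1. Tpsab1 and Tpsb2 lie on chromosome 10, Cpa3 on chromosome 2, Fcer1a on chromosome 13 and Ms4a2 on chromosome 1. Upstream sequences of RefSeq, build GRCr8, were held for 6 of the 7 members. The 250 bases before the start of Mcpt9 (chr15:33827180-33827429, plus strand) are shown beside those of Mcpt8 (chr15:33769399-33769648, plus strand), a protease gene that marks basophils in mice, because the pair is so alike. Shifted by 8 bases, 242 positions aligned without a gap, 233 of them (96.3%) identical, and the capitals mark the 9 that differ.
Mcpt9: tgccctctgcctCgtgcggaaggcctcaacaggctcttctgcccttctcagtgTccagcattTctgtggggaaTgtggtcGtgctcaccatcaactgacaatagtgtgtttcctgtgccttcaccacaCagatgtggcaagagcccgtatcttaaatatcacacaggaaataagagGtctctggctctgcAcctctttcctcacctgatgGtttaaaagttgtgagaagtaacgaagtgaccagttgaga
Mcpt8: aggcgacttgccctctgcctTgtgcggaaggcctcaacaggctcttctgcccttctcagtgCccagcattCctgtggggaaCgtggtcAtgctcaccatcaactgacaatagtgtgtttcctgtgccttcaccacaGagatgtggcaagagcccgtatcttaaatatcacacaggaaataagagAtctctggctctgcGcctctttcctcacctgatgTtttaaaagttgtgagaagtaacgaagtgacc

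The probes' own sequences were not used here, so whether the Mcpt9 probe also binds transcripts of its relatives was not tested. The letters GATAA or TTATC, the core that GATA factors bind, occurred in this window of 4 of the 6 members, and CATGTG or CACATG, an E-box of the kind bound by MITF, in 3 of the 6. Both were searched on both strands, and the letters of the 2 motifs do not overlap. Over all 33469 promoters held, 23.5% had the first and 12.1% the second. Mcpt9 had neither. Cpa3 (chr2:104673238-104673487, minus strand) and Tpsb2 (chr10:14886060-14886309, plus strand) are shown with these letters in capitals, since their r was the highest among the members. That r of 0.55 did not pass (permutation, adjusted p = 0.176) and was -0.30 on slide 3. The E-box also occurred in Fcer1a, and the GATA letters in Cma1, Tpsab1 and Fcer1a. Whether these letters bear on the levels was not tested. Cpa3 holds the E-box 144 bases and GATAA 54 bases before its start, and Tpsb2 holds the E-box 209 bases before its start.
Cpa3: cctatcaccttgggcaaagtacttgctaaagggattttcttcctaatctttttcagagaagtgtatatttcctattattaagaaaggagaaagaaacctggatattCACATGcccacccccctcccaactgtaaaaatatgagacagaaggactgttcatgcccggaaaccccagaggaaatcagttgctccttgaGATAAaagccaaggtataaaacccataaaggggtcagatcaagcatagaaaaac
Tpsb2: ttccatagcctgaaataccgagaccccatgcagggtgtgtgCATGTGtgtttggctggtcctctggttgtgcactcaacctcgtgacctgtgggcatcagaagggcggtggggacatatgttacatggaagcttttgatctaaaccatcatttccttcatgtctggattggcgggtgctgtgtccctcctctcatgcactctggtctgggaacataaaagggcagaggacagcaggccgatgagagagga

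All members were dim. A probe counted as well above background on an array only where all its kept spots did. Mcpt9 and Tpsb2 were well above background on all 20 arrays, Cma1 on 19, Tpsab1 on 15, Ms4a2 on 14 and Cpa3 on 12. Fcer1a, the subunit that binds immunoglobulin E itself, was well above background on 0 of 20 arrays with either probe. For the probe of it with 10 spots, 4 of the 10 were above background in control replicate 4. The label of mast cell genes therefore rests on the names of the proteases and Ms4a2, and the gene that defines the receptor was not measurable. Correlation among the fitted members does not add to that label, since 0 of 15 pairs passed in the main processing, as given below. 6 of the 7 members passed the filter of at least 4 arrays above background and were fitted.

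Mcpt9 had values of -4.18, -4.14, -3.99, -4.09 and -3.65 in control ovaries and of -4.18, -4.73, -4.15 and -4.19 in those of the 0.06 group. At 20 mg/kg/day the values were -4.26, -4.57, -4.58, -4.30 and -4.63. In the 60 group the lowest was -4.88, the median -4.58 and the highest -4.25. All 5 ovaries at 20 and all 6 at 60 lay below every control ovary, and 2 of the 4 at 0.06 did. Over all 23258 probes tested, 0.241% had every array at 20 below every control, 0.249% at 60 and 0.327% at 0.06, and 0.361%, 0.215% and 0.305% had every array above every control at these doses. Mcpt9 was chosen for this contrast, so nothing is read from its place among them; of the other members 0 of 5 separated from the controls in either direction.

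In means, Mcpt9 was -4.57 ± 0.24 at 60 mg/kg/day (SD, n = 6), against -4.01 ± 0.22 in controls (n = 5). The difference was -0.55 ± 0.14 (SE), or 0.682-fold. At 20 mg/kg/day the mean was -4.47 ± 0.17 and the difference from the same controls -0.46 ± 0.14. At 0.06 mg/kg/day the mean was -4.31 ± 0.28 and the difference -0.30 ± 0.15. The 3 differences share the 5 control arrays, among which replicate 5 was the brightest at -3.65. Within the slides, 60 minus 0 was -0.42, -0.51 and -0.86, 20 minus 0 was -0.10, -0.58 and -0.63, and 0.06 minus 0 was -0.29, -0.16 and -0.32, each from 1 to 3 arrays a group. With normexp background correction, whose offset is added to every signal and compresses dim ones most, the 3 differences from the controls were -0.21 at 60, -0.17 at 20 and -0.07 at 0.06.

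Mcpt9 was also compared between 20 and 0.06 mg/kg/day on those 9 arrays alone, since it had been chosen on the others. The difference was -0.16 (exact permutation test over 126 arrangements, two-sided p = 0.349). In limma, where all 4 groups set the residual spread, the 95% interval was -0.48 to 0.16. The groups overlapped, since the 0.06 ovary at -4.73 was below all 5 ovaries at 20 mg/kg/day.

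**Figure D1:**
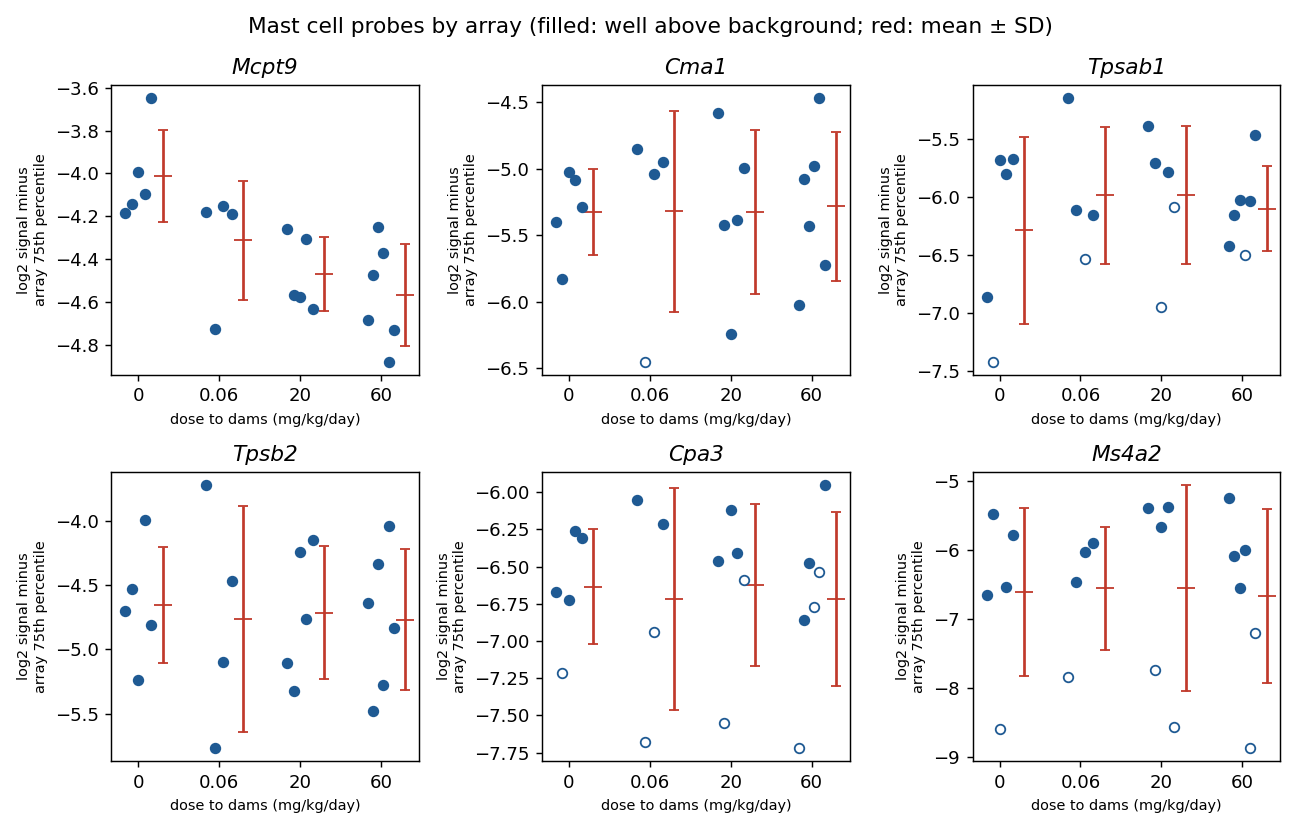
Each panel shows 1 gene, with dose in mg/kg/day on the x axis and log2 signal minus the log2 75th percentile of the array on the y axis. Points are ovaries, filled where the probe was well above background, and red marks give mean ± SD. Mcpt9 at 20 and 60 lies wholly below the controls, while in the other 5 genes each dosed group overlaps the controls.

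The other proteases were not separated from the controls in this way. Cma1 had values of -5.40, -5.83, -5.02, -5.09 and -5.29 at 0 mg/kg/day and -4.85, -6.45, -5.04 and -4.95 at 0.06. At 20 it had -4.58, -5.42, -6.24, -5.39 and -5.00, and at 60 a lowest value of -6.02, a median of -5.26 and a highest of -4.47. The dosed ovaries lay on both sides of the controls, and the difference at 60 minus 0 was 0.04 ± 0.33 (SE; 95% interval -0.65 to 0.73).

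Tpsb2, tryptase beta 2, had values of -4.70, -4.53, -5.24, -3.99 and -4.81 at 0 mg/kg/day and -3.72, -5.77, -5.10 and -4.47 at 0.06. At 20 it had -5.11, -5.33, -4.24, -4.76 and -4.15, and at 60 it ran between -5.48 and -4.04 with a median of -4.74. Both the brightest and the dimmest of the 20 ovaries were in the 0.06 group, and all groups overlapped. The difference at 60 minus 0 was -0.11 ± 0.34 (95% interval -0.83 to 0.61).

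Tpsab1, the other tryptase gene, had values of -6.86, -7.42, -5.68, -5.80 and -5.68 at 0 mg/kg/day and -5.15, -6.11, -6.54 and -6.16 at 0.06. At 20 it had -5.39, -5.71, -6.95, -5.79 and -6.09, and at 60 the lowest was -6.50, the median -6.10 and the highest -5.46. The 2 dimmest controls were both on slide 1, and the sign of the difference changed between slides. At 0.06 minus 0 it was 1.51 on slide 1 (2 arrays in each group), against -0.85 on slide 2 and -0.42 on slide 3, where the 0.06 group had 1 array each. At 20 minus 0 it was 1.75, -0.02 and -0.53 on slides 1 to 3, and at 60 minus 0 it was 0.85, -0.51 and 0.28. Pooled, the differences were 0.30 ± 0.38 at 0.06, 0.31 ± 0.36 at 20 and 0.19 ± 0.34 at 60.

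Cpa3 had values of -6.67, -7.22, -6.72, -6.26 and -6.31 at 0 mg/kg/day and -6.05, -7.68, -6.94 and -6.21 at 0.06. At 20 it had -6.46, -7.55, -6.12, -6.41 and -6.59, and at 60 it ran between -7.72 and -5.95 with a median of -6.66. It was well above background on 4 of 5, 2 of 4, 3 of 5 and 3 of 6 arrays of the rising doses. The groups overlapped throughout, and 60 minus 0 was -0.08 ± 0.33 (95% interval -0.77 to 0.60).

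Ms4a2, the receptor's beta subunit, spread most. It had values of -6.66, -5.48, -8.60, -6.53 and -5.79 at 0 mg/kg/day and -7.84, -6.46, -6.03 and -5.90 at 0.06. At 20 it had -5.40, -7.74, -5.67, -5.38 and -8.56, and at 60 a lowest value of -8.87, a median of -6.32 and a highest of -5.24. Each group held at least 1 ovary below -7.7 beside several above -6.6, and 60 minus 0 was -0.05 ± 0.72 (95% interval -1.55 to 1.45).

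limma called 0 of 23258 probes (0%) at an adjusted p under 0.05 at any dose. Unadjusted p-values under 0.05 numbered 710 at 0.06, 1066 at 20 and 1464 at 60. Without any difference a share of about 0.05 of the probes would fall there. The counts at 0.06 and 20 lay under that share and the count at 60 above it. All of them share the control arrays and 0 probes passed adjustment, so they are not read as a response that grows with dose. For the 5 fitted members other than Mcpt9, adjusted p ran from 0.918 to 0.992 at 60 minus 0, from 0.935 to 1.00 at 20 minus 0 and was 1.00 for each at 0.06 minus 0. Of these 5, 2 were higher and 3 lower at 60, and 3 were higher and 2 lower at both other doses. Their median difference was -0.05 at 60, 0.01 at 20 and 0.00 at 0.06, beside -0.04, 0.03 and -0.03 over all probes tested. At 20 and 60 the 95% intervals of Cma1, Cpa3 and Tpsb2 hold changes as large as that of Mcpt9 in either direction. Those of Tpsab1, -0.45 to 1.06 at 20 and -0.53 to 0.91 at 60, hold a rise of that size and end just short of such a fall.

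**Figure D2:**
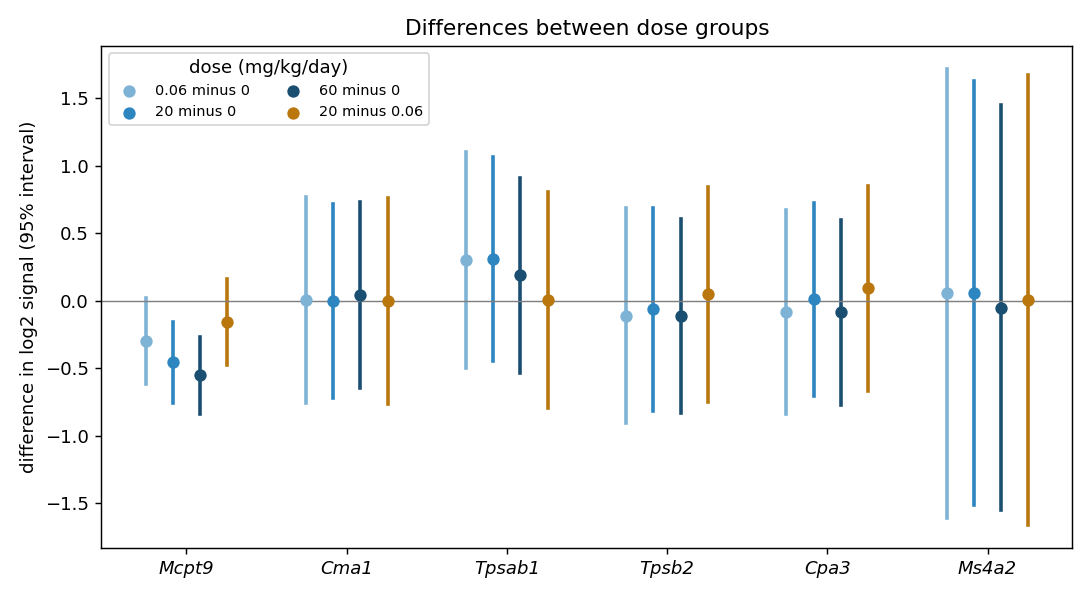
Points give the difference in log2 signal for each gene in 4 comparisons of dose groups, and lines the 95% interval from limma. The Mcpt9 points lie at -0.30, -0.46 and -0.55 against the controls and at -0.16 for 20 minus 0.06. The Mcpt9 lines are narrower than those of the other genes. Mcpt9 was chosen for its difference between the highest dose and the controls. Its lines against the controls are therefore not read as tests.

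Mcpt9 was the steadiest of the members, but it had been chosen on arrays that also set this spread, so its rank is only described. Its SD between rats of 1 group was 0.226 log2, below the median of 0.275 over all tested probes and at the 38.4th percentile. Cma1, Cpa3, Tpsab1 and Tpsb2 had SDs of 0.570, 0.568, 0.599 and 0.598, at the 85.1st to 86.9th percentile, and Ms4a2 had 1.26, at the 98.5th. Each of these probes was printed at 2 spots of every array, which gives the spread of reading within an array. For Tpsb2 the SD between spots was 0.0834, so rats differed 7.17 times as much as spots, and for Cma1 the spot SD was 0.169. For Mcpt9 the spots differed with an SD of 0.137, for Cpa3 0.356, for Tpsab1 0.286 and for Ms4a2 0.571. The Ms4a2 value rests on replicate 1 at 20 mg/kg/day, whose spots read 10.1 and 86.1, and without that array it was 0.302. The Cpa3 value was 0.25 without replicate 4 at 60 mg/kg/day, whose spots read 6.13 and 19.4. For Tpsab1 it was 0.22 without replicate 5 at 20 mg/kg/day, whose spots read 14.8 and 34.7. Spots of 1 array share their labelling and hybridisation, so their SD leaves out the error between arrays.

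**Figure D3:**
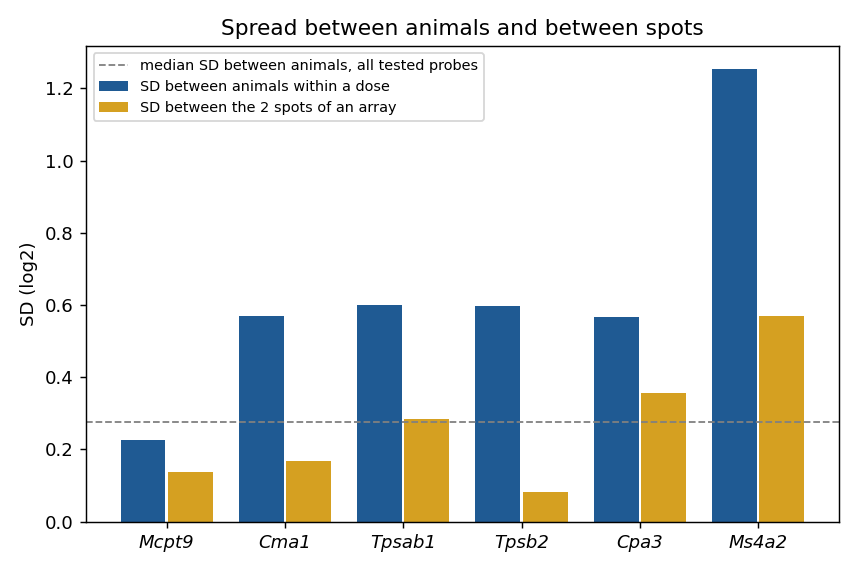
Bars compare, for each gene, the SD of log2 signal between rats of 1 dose group with the SD between the 2 spots of 1 array. The dashed line at 0.275 is the median SD between rats over all tested probes. Of the 6 bars for rats only that of Mcpt9 ends below the line, and Tpsb2 has the highest ratio of the first bar to the second, 7.17.

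The members were compared with each other over the 20 ovaries in 15 pairs. Pearson's r ran from -0.38 to 0.55, 11 pairs were positive, and 0 passed after Benjamini-Hochberg adjustment of permutation p-values. Cpa3 and Tpsb2 gave the highest value, r = 0.55 (permutation p = 0.0117, adjusted p = 0.176) with Spearman's rho of 0.53 (permutation p = 0.0163, adjusted p = 0.244). Without the 2 ovaries farthest from the median of Cpa3, r was 0.54, and on the 3 slides it was 0.51, 0.67 and -0.30. Cma1 followed Tpsab1 with r = 0.42 (permutation p = 0.0615, adjusted p = 0.311) and Cpa3 with r = 0.40 (permutation p = 0.0771, adjusted p = 0.311). The 2 tryptase genes, neighbours on chromosome 10, had r of 0.02 (permutation p = 0.930). All 10 pairs among the 5 proteases were positive, but 1 of them, Cma1 with Tpsb2, kept its sign on all 3 slides. In the authors' deposited table Mcpt9 had r of -0.12 with Tpsab1 and -0.03 with Tpsb2, and with quantile normalization the tryptases had -0.06 with each other. With normexp background correction 4 of the 15 pairs passed, all among Cma1, Cpa3, Tpsab1 and Tpsb2. That setting also changed r of the mean of the standardised members with other genes. For Tmem174, Lrrc4b, Adra1a, Or6f2 and Vip, above background on 4 to 10 arrays, r was 0.82 to 0.90, against 0.59 to 0.68 without it. For Furin, Hacd1 and Acsl3, above background on all 20 arrays, r fell to 0.11, 0.33 and 0.24. Tnxa-ps1 and Lrrc10b stayed at 0.64 and 0.63. The offset's part in the 4 pairs was not tested.

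For Mcpt9, r was 0.26 with Cma1, 0.29 with Cpa3, 0.26 with Ms4a2, 0.07 with Tpsab1 and 0.04 with Tpsb2 (adjusted p from 0.450 to 0.915, permutation). With Cma1 it was 0.58 without the 2 ovaries farthest from the median of Mcpt9 and 0.49 without replicate 5 at 60 mg/kg/day. With Ms4a2 it was -0.01 without the 2 farthest ovaries and 0.51 on residuals of dose group and slide. Among the 7 other proteases that were measured, not all of them particular to mast cells or granulocytes, its r ran from -0.28 with Dpp4 to 0.30 with Mcpt8 (permutation, lowest adjusted p of 7 relations 0.589).

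**Figure D4:**
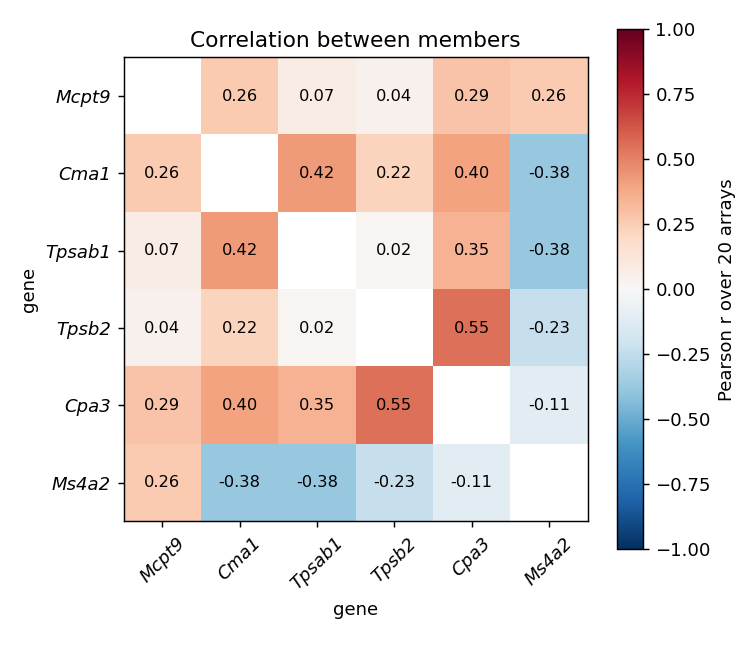
The grid gives Pearson's r between each pair of genes over the 20 arrays, from blue at -1 to red at 1. Pairs among the 5 proteases lie between 0.02 and 0.55, and 4 of the 5 pairs with Ms4a2 are negative, of which 3 turn positive with normexp.

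Ms4a2 had r of -0.38 with Cma1, -0.38 with Tpsab1, -0.23 with Tpsb2 and -0.11 with Cpa3, none past the threshold (adjusted p from 0.311 to 0.798, permutation). These signs were not stable: with normexp r was 0.02 with Cma1, 0.12 with Tpsab1 and 0.29 with Cpa3. On the arrays where both genes were well above background, it was 0.39 with Tpsab1 (10 arrays), 0.31 with Cpa3 (9), 0.03 with Tpsb2 (14) and -0.26 with Cma1 (13). Its low values were set beside Cyp17a1, the theca cell enzyme of androgen synthesis, after both had been seen. The 5 ovaries lowest in Ms4a2, at -8.87 to -7.74 and not well above background, were the 5 lowest in Cyp17a1, at -3.52 to -2.62. In the other 15, Ms4a2 ran from -7.20 to -5.24 and was above background in 14, and Cyp17a1 ran from 1.71 to 3.86. The 5 ovaries came from all 4 groups (1, 1, 2 and 1 at the rising doses) and all 3 slides. Because the ovaries form separate clusters in Cyp17a1, no r with that gene was taken over all 20. Within the 15, r of Ms4a2 with Cyp17a1 was 0.33 (permutation p = 0.224, adjusted p = 0.911 over 7 relations; rho 0.04, permutation p = 0.894), and 0.12 without the 2 farthest ovaries. In the same 15, Ms4a2 with the other members had r from -0.28 to 0.17 (adjusted p = 0.911 for each, permutation). Mcpt9, Cma1, Cpa3, Tpsab1 and Tpsb2 overlapped between the 5 ovaries and the 15.

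**Figure D5:**
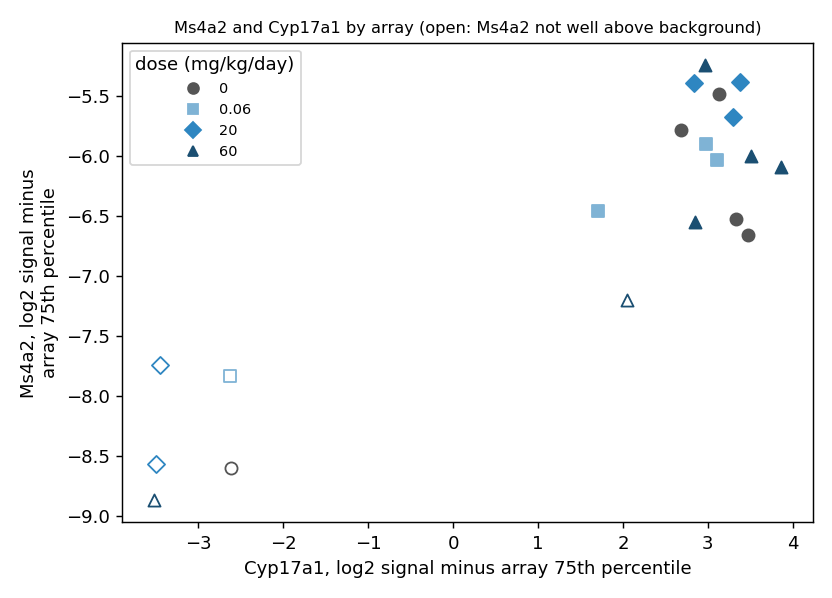
Each point is 1 ovary, with log2 signal of Cyp17a1 on the x axis and of Ms4a2 on the y axis, both minus the array's 75th percentile. The 5 ovaries at the left have Cyp17a1 below -2.6 and Ms4a2 below -7.7, and open symbols mark Ms4a2 not well above background.

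Other genes of mast cells were taken from 3 lists: other proteases, genes of mast cell identity, and genes of immunoglobulin E receptor signalling. Not all of the listed proteases are particular to mast cells or related granulocytes. Of 69 genes 60 had a probe and 50 could be fitted, and 0 of the 50 passed at any dose. Their median difference was 0.07 at 0.06, 0.13 at 20 and -0.02 at 60, beside -0.03, 0.03 and -0.04 over all probes. Mcpt3, Mcpt4, Mcpt8l2 and cathepsin G (Ctsg) among the proteases, and Gata1, Mrgprx1 and Mrgprx2 among the identity genes, were well above background on 0 arrays.

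Among the fitted proteases, Mcpt1 differed from the controls by 0.06 ± 0.20 at 0.06, -0.38 ± 0.19 at 20 and 0.05 ± 0.18 at 60 mg/kg/day. Mcpt8 differed by -0.22 ± 0.30, 0.01 ± 0.29 and -0.38 ± 0.27 at these doses, Mcpt1l1 by 0.21 ± 0.27, 0.28 ± 0.25 and 0.18 ± 0.24, and Prss34 by -0.06 ± 0.21, 0.14 ± 0.20 and -0.20 ± 0.19. Granzyme B (Gzmb), which cytotoxic lymphocytes also make, differed by -1.24 ± 0.83, -1.42 ± 0.78 and -1.29 ± 0.75. Cathepsin C (Ctsc), which activates granule proteases, differed by 0.22 ± 0.25, 0.43 ± 0.24 and 0.56 ± 0.23, and Dpp4, a peptidase of the cell surface, by 0.25 ± 0.30, 0.35 ± 0.28 and 0.30 ± 0.27. None passed, with an adjusted p of 0.782 for Ctsc at 60 in limma.

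Kit, the receptor of stem cell factor that mast cells need and that oocytes and theca cells also carry, differed by -0.72 ± 0.44, -1.18 ± 0.41 and -1.04 ± 0.39 at 0.06, 20 and 60, and its ligand Kitlg by -0.09 ± 0.11, -0.06 ± 0.10 and -0.08 ± 0.10. Hpgds, the prostaglandin D synthase of mast cells and some macrophages, differed by 0.63 ± 0.45, 0.67 ± 0.43 and 1.09 ± 0.41. Hdc, which makes histamine, differed by 0.15 ± 0.19, 0.16 ± 0.18 and -0.16 ± 0.17, and Slc18a2, which loads it into granules, by -0.19 ± 0.15, -0.24 ± 0.14 and -0.21 ± 0.13. None of these passed, and the adjusted p at 60 was 0.782 in limma for both Kit and Hpgds.

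The transcription factor Gata2 differed by 0.26 ± 0.24, 0.05 ± 0.22 and -0.11 ± 0.21 at the 3 doses, and Mitf by -0.15 ± 0.20, -0.04 ± 0.19 and -0.24 ± 0.18. Fcer1g, the receptor's gamma subunit that macrophages also use, differed by 0.26 ± 0.22, 0.37 ± 0.20 and 0.37 ± 0.20. Srgn, the core protein of granule proteoglycans, differed by 0.03 ± 0.20, -0.33 ± 0.19 and -0.34 ± 0.18, and the interleukin 33 receptor Il1rl1 by -0.38 ± 0.72, -0.44 ± 0.68 and -0.53 ± 0.65. None passed the threshold. Mitf, Fcer1g, Gzmb and Kitlg had further probes, whose differences were of other sizes and did not pass either. At 60 minus 0 the further Mitf probes had -0.24 and -0.50 and the further Fcer1g probe 0.47. The further Gzmb probe had -0.60 at 0.06 minus 0, and the further Kitlg probes had 0.10 and 0.03 at 20 minus 0. For Il1rl1 the sign depended on the slides: 60 minus 0 was 0.91 without slide 1 and -1.82 without slide 3, and the other doses turned likewise. At 0.06 minus 0, Gzmb was 0.28 without slide 1, and Hdc was -0.19 without slide 1 and 0.49 without slide 3. With normexp, Mcpt1 at 20 minus 0 was 0.02.

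Markers of other cells gave the following values. Of 16 macrophage genes, 14 were higher at 60 than at 0, 15 at 20 and 14 at 0.06, with median differences of 0.53, 0.42 and 0.28 and 0 called. The mean of that list ran from -1.11 to -0.24 at 60, -1.01 to -0.37 at 20, -1.36 to -0.32 at 0.06 and -1.34 to -0.60 at 0 mg/kg/day, and its part in Fcer1g, Ctsc and Hpgds was not tested. Of 9 stroma and matrix genes, 9 were higher at 20 and 9 at 60 than at 0, with median differences of 0.49 and 0.31. Their mean ran from 2.36 to 2.79 at 20 and 2.17 to 2.63 at 60, against 1.96 to 2.56 at 0 mg/kg/day. Of 9 smooth muscle genes, 9 were higher at 20 and 4 at 60 (medians 0.34 and -0.01), and of 8 fitted endothelial genes 7 were lower at both 20 and 60 (medians -0.11 and -0.24). Of 13 ovarian genes, 11 were lower at 20 and 7 at 60 (medians -0.37 and -0.05). Of these lists 0 genes were called, and their part in the lower Mcpt9 values at 20 and 60 was not tested. Of 12 genes of basophils and eosinophils 4 could be fitted, and Epx, Prg3, Ccr3, Il5ra and Il4 were well above background on 0 arrays. Between the 6 fitted members and the means of 11 marker lists of other cells, 66 relations were computed. With the 4 basophil and eosinophil genes, r was 0.44 for Mcpt9, 0.48 for Ms4a2, 0.50 for Cpa3, 0.17 for Tpsab1, 0.06 for Tpsb2 and -0.08 for Cma1. None of these passed (adjusted p from 0.209 to 0.937, permutation). For Mcpt9 that r was 0.02 without the 2 farthest ovaries and 0.76 on residuals of dose group and slide. By r, 1 of the 66 passed after adjustment, Ms4a2 with 13 ovarian genes (r = 0.80, permutation p = 5e-05, adjusted p = 0.0033). Its rho was 0.54 (permutation p = 0.0149, adjusted p = 0.197). Cyp17a1 is among these 13 genes, so this r spans the separate clusters described above and no relation beyond them is read from it. Within the 15 ovaries named above, r was -0.08 (permutation p = 0.762, adjusted p = 0.911 over 7 relations). By rho, 1 passed, Cpa3 with 6 nerve genes (rho 0.80, permutation p = 6e-05, adjusted p = 0.00396), where r was 0.54 (permutation p = 0.0140, adjusted p = 0.209), 0.63 without the 2 farthest ovaries, 0.24 on residuals of dose group and slide, and 0.12, 0.72 and 0.57 on the 3 slides.

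The genes most like Mcpt9 over the 20 arrays, by r, were Gzmc (granzyme C, r = 0.71, above background on 9 arrays), Fam181b (0.69), Lrrc4b (0.68, on 5 arrays), Smndc1 (0.64) and Xcl1 (0.64, on 17 arrays). Closest to the mean of the standardised members were Tmem174 (0.68, on 5 arrays), Furin (0.62), Lrrc4b (0.62), Adra1a (0.61, on 10 arrays) and Or6f2 (0.61, on 4 arrays), then Tnxa-ps1, Hacd1, Acsl3, Lrrc10b and Vip at 0.60 to 0.59. These are descriptions over arrays that share dose groups, slides and scaling, and the dim genes among them share the dim end of the signal with the members.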

How the data were processed

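Intensity of each spot came background-corrected from Feature Extraction 11.5.1.1, per the file headers; the deposited series table holds the authors' log2 values, whose normalization is not given in the sources used here. On 19828 probes these tracked the scanner values (r from 0.946 to 0.991); their column medians ran from -0.07 to 0.08, and the baseline of their centring is unknown. Probes were matched by transcript accession to GRCr8 genes; 18758 of 30367 had 1 symbol, 0 several and 11609 none. Spots of a probe were averaged without control spots and outliers, dropping 32 probes, and 0 spots were saturated. For a gene with several probes, the probe above background on most arrays was used. Probes well above background on at least 4 arrays were kept, 23258 in all. limma 3.58.1 (R 4.3.3) fitted 4 group means to 20 arrays with Benjamini-Hochberg adjustment at 0.05. Correlations used 100000 permutations (scipy 1.17.1), two-sided. Replicate 4 at 0.06 mg/kg/day had been removed by the submitters, per the labels. Replicate numbers were not used to pair arrays in the main fit. The members, the lists and the genes named (members, 10 fixed mast cell genes, detected proteases, genes of highest r) were chosen with earlier results of these data known. limma was tested on simulated data. The number of arrays limits the precision. Alternatives were quantile normalization, normexp with an offset of 50 on median signals, the authors' table, other filters, blocks and left-out arrays; leaving out a slide, comparing 20 with 0.06, and relating Ms4a2 to Cyp17a1 and members to marker lists were added after seeing the data.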

Additional observations from a re-analysis of the deposited data

Results flagged for a closer look

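Of 24 sets of values tested (6 members in 4 groups), 2 held a value far from the rest, and chance alone gives about 1 in 20. Both were replicate 2 at 0.06 mg/kg/day. Mcpt9 was -4.73 there, with the next value of that group at -4.19 and the highest at -4.15. Cma1 was -6.45 there, not well above background, with the next at -5.04 and the highest at -4.85. The same ovary was the lowest of its group for 4 of the 6 members (Mcpt9, Cma1, Cpa3 and Tpsb2) and the lowest of all 20 for Cma1 and Tpsb2. Without it, r of Cma1 with Tpsb2 was -0.01, against 0.22 with it, and Mcpt9 at 0.06 minus 0 was -0.16, against -0.30 with it. The cause was not tested.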

How the results depend on the processing

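limma called 0 probes in each comparison with the controls, in 20 minus 0.06, over the dose order and jointly under every alternative run. Probes at an unadjusted p under 0.05 numbered 551 to 2767 at the lowest dose, 665 to 2878 at the middle and 1015 to 3083 at the highest (left-out arrays not counted here). The highest counts came without the filter on dim probes, where more probes were tested. With 1 array left out limma called 0 as well, and 0 of the other mast cell genes passed under any alternative. With 1 array left out, Mcpt9 at 60 minus 0 ran from -0.62 to -0.46. The 4 differences of the other 5 fitted members changed sign in 66 of 195 refits without 1 array of either group compared, and in 62 of 180 with another scaling, block or slide left out. The median difference of the 6 members at 60 minus 0 was -0.07; with 1 array left out it ran from -0.18 to 0.03, with quantile normalization it was 0.03, with normexp 0.15 and without slide 3 0.14. Filtering for all arrays leaves 2 of the members, so its median of -0.33 is not over the same genes. With normexp, 4 of the 15 pairs passed (Cma1 with Cpa3, Cma1 with Tpsab1, Cpa3 with Tpsab1 and Cpa3 with Tpsb2). Dim genes outside the members rose in r with the members' mean in that setting too, and the offset's part was not tested. With 1 array left out, 0 to 1 passed, and the 1 was Cpa3 with Tpsb2 without replicate 1 at 60 mg/kg/day (r = 0.65, permutation, adjusted p = 0.0424). In the authors' deposited table r of that pair was 0.37. Replicate numbers gave no pairing: same-numbered arrays correlated with a mean r of 0.01, 1 of 19 arrays correlated best with its own number, and with the replicate block the median difference of the members was -0.02, Mcpt9 at 60 minus 0 was -0.52 and 0 probes were called. A mean over all probes of a gene was not run, since each fitted member has 1 probe. Normexp used median signals. Dim signal limits Fcer1a, Cpa3 and Ms4a2, which did not have all spots well above background on 20, 8 and 6 arrays.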
